A study of Mus musculus with 6 samples.

Results

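Nuclear receptors are transcription factors, many of which are switched by small lipid-soluble ligands, and 32 of them were followed here in mouse liver. The 32 symbols were listed by family, and each was read from the probe set that carries that gene symbol alone; a gene with several was read from the one whose 6-array mean was highest. In this way 31 of the 32 receptors were found among the 22180 genes of the array table, and Nr2e3 was not analysed here. Receptors of the LXR, FXR, SHP, REV-ERB and NR4A kind were not on the list.

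Livers of 3 male Gpr146 knockout (KO) mice were set against livers of 3 male wild-type (WT) littermates; Gpr146 belongs to the G protein-coupled receptors. All 6 mice were on a C57BL/6J background, were 24 weeks old and ate chow, and all were fasted for 16 hours and then refed for 6 hours before collection. Each liver was measured on 1 Affymetrix whole-transcript array, and values are the deposited log2 signals, so a difference of 1 is a factor of 2 in signal. The knockout was whole-body, so liver was not the only tissue without the gene, and the sources used here do not say which part of Gpr146 was deleted.

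Array medians lay between 2.67 and 2.73, and the correlation of any 2 arrays, over 41345 probe sets, was between 0.983 and 0.988. Gpr146 itself read 4.61, 4.28 and 3.87 in KO mice 1 to 3, against 5.96, 5.56 and 5.65 in WT mice 1 to 3. Its difference of -1.47 ± 0.19 (SE), a signal 2.77-fold higher in WT, missed the threshold at a limma adjusted p of 0.0702 and passed with median centring (0.0204), with trend and robust options (0.0272) or without WT mouse 3 (0.0268). Whether its probes lie in the deleted part was not stated. Alb, the liver's main plasma protein, averaged 11.91 ± 0.01 in KO and 11.92 ± 0.02 in WT (SD, n = 3 each). All 6 hepatocyte markers were above the signal filter, and their summed linear signal ran from 15857 to 16320 in KO livers and from 16090 to 16243 in WT livers. The tissue label was therefore borne out by its defining markers in every mouse.

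A nuclear receptor binds DNA through a zinc-finger domain and its ligand through a separate pocket, and it recruits coactivators or corepressors to its target genes. Many receptors of liver work as heterodimers with a retinoid X receptor (RXR), among them those for fatty acids, retinoic acid, thyroid hormone and foreign chemicals, while steroid receptors act as homodimers. In hepatocytes these factors are known for setting fatty acid oxidation in fasting, drug clearance, glucose output and hepatocyte identity.

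None of the receptors passed the test between KO and WT. Of the 31, 24 had a mean signal of 2.99 or more, which is the upper 50% of genes, and were tested; 15 of these reached 4.998, the bound of the upper 25%. In limma with Benjamini-Hochberg adjustment over all 11090 genes of that range, 0 of the 24 had an adjusted p under 0.05, where 4 genes in all, or 0.0361%, did. At an unadjusted limma p under 0.05, 2 receptors were higher in KO (8.33% of the 24) and 0 were lower, where 6.16% of all genes tested were higher and 2.98% lower. Those 2 were Nr2f6 and Nr1i2. The 95% interval of the difference lay within 0.5 of 0 on either side, a factor of 1.41, for 17 of the 24 receptors, and the widest bound of any was 0.71. Signals of different probe sets depend on the probes, so levels are given gene by gene and are not ranked against each other. In bulk liver, fewer cells of a type and less RNA per cell cannot be told apart.

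**Figure D1:**
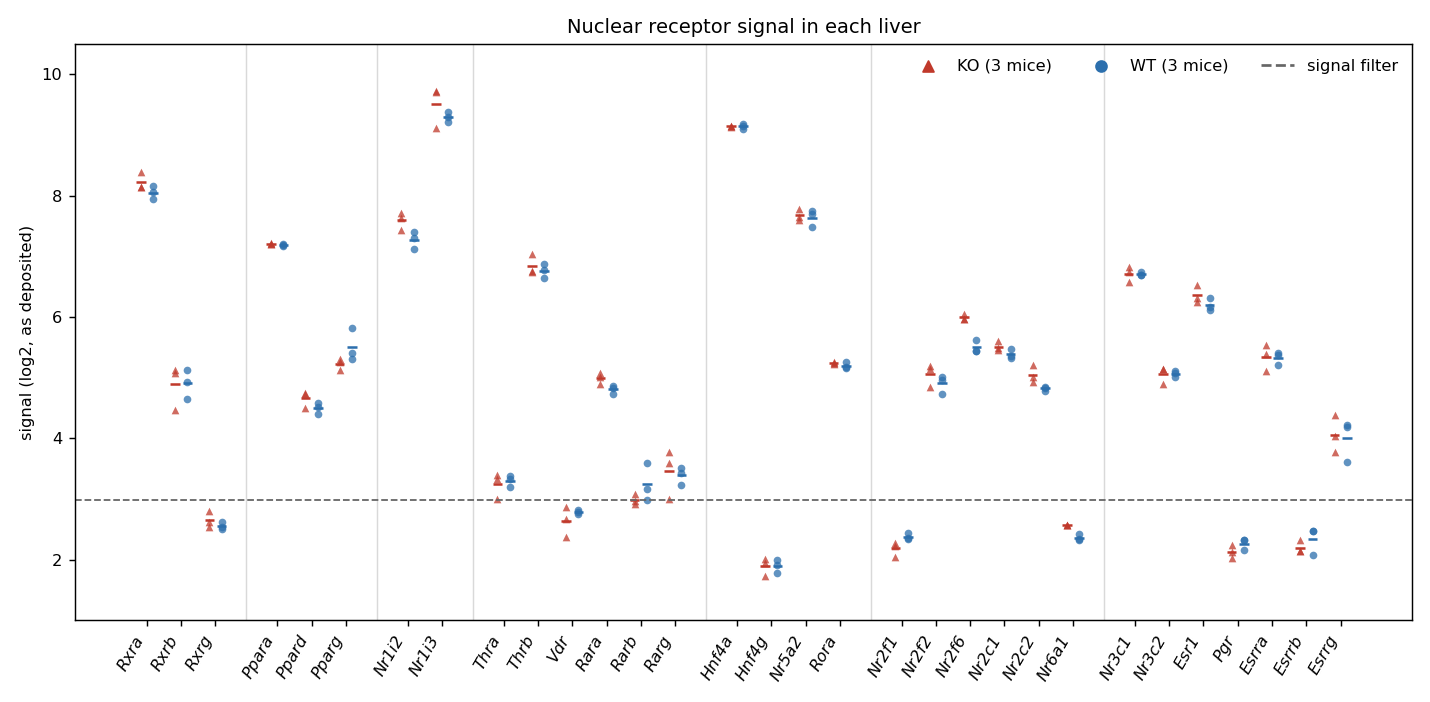
Log2 signal (vertical axis) of 31 nuclear receptors in each liver, KO mice as triangles left of WT mice as circles, with short bars at the group means; vertical lines separate receptor groups and the dashed line marks the signal filter at 2.99. Nr2f6 shows KO values of 5.96 to 6.06 above WT values of 5.44 to 5.62, while Ppara, Hnf4a and Rora show nearly coincident points, and 7 receptors lie under the filter.

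The retinoid X receptors, the shared heterodimer partners, were represented by Rxra and Rxrb above the filter. Rxra, the RXR known to predominate in liver, read 8.14, 8.39 and 8.14 in KO mice 1 to 3, against 7.94, 8.05 and 8.16 in WT mice 1 to 3. The groups overlapped, because WT mouse 3 lay above KO mice 1 and 3. The difference was 0.17 ± 0.11 (SE; 95% interval -0.08 to 0.42; limma adjusted p = 0.668), or 0.09 without KO mouse 2. Rxrb averaged 4.89 ± 0.36 in KO and 4.91 ± 0.24 in WT (SD, n = 3 each), a difference of -0.02. It was lowest in KO mouse 1, at 4.47, and without that mouse the difference was 0.19 (limma adjusted p = 0.736). Rxrg, the RXR of muscle and brain, averaged 2.65 in KO and 2.56 in WT and lay under the filter.

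The peroxisome proliferator-activated receptors (PPARs) sense fatty acids and their derivatives. Ppara, the regulator of hepatic fatty acid oxidation, read 7.21, 7.20 and 7.22 in KO mice 1 to 3, against 7.17, 7.20 and 7.19 in WT mice 1 to 3. The 6 values spanned 0.06, and the difference was 0.03 ± 0.08 (SE; 95% interval -0.17 to 0.22; limma adjusted p = 0.950). Its SD between mice, 0.016 pooled over the groups, was undercut by 0.0361% of all genes tested. Ppard, the broadly expressed member, averaged 4.66 ± 0.14 in KO and 4.50 ± 0.10 in WT (SD, n = 3 each), with overlapping values.

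Pparg, known best for driving fat storage genes, had a negative difference. It read 5.25, 5.31 and 5.13 in KO mice 1 to 3, against 5.31, 5.81 and 5.41 in WT mice 1 to 3. Every KO value was below every WT value, but KO mouse 2 and WT mouse 1 differed only in the third decimal, and WT mouse 2 stood above the rest. The difference was -0.28 ± 0.14 (SE; limma adjusted p = 0.593), with an exact permutation p of 0.1, below which 3 against 3 cannot go. Without WT mouse 2 it was -0.13, and after median centring the groups overlapped. Markers of fat cells were at a summed linear signal of 28.5 to 57.7 in KO livers and 33.3 to 48.0 in WT livers, over 4 genes of which 2 were above the filter. Their part in the result was not tested.

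The xenobiotic receptors were both higher in KO on average. Nr1i2 encodes the pregnane X receptor (PXR), which turns on drug-metabolising enzymes. It read 7.44, 7.63 and 7.71 in KO mice 1 to 3, against 7.30, 7.39 and 7.12 in WT mice 1 to 3. The groups did not overlap as deposited but did after median centring. The difference was 0.32 ± 0.11 (SE; 95% interval 0.06 to 0.58), a factor of 1.25, with an unadjusted limma p of 0.0214 and an adjusted p of 0.442. Nr1i3 encodes the constitutive androstane receptor (CAR), PXR's close relative. It read 9.70, 9.72 and 9.11 in KO mice 1 to 3, against 9.39, 9.29 and 9.22 in WT mice 1 to 3. KO mice 1 and 2 were above all WT mice and KO mouse 3 was below them all, so the difference of 0.21 ± 0.16 (SE; limma adjusted p = 0.722) became 0.41 without KO mouse 3 (adjusted p = 0.501) and 0.11 without KO mouse 2.

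Receptors for thyroid hormone, vitamin D and retinoic acid followed, none past the threshold. Thrb, the thyroid hormone receptor form that predominates in liver, averaged 6.84 ± 0.17 in KO and 6.77 ± 0.11 in WT, and Thra averaged 3.24 ± 0.21 in KO and 3.31 ± 0.09 in WT (SD, n = 3 each). Both had overlapping groups. Vdr, the vitamin D receptor, known in liver from non-parenchymal cells, averaged 2.64 in KO and 2.79 in WT and lay under the filter. Rara, the main retinoic acid receptor of hepatocytes, read 5.08, 4.90 and 5.01 in KO mice 1 to 3, against 4.86, 4.83 and 4.74 in WT mice 1 to 3. The groups did not overlap as deposited but did after quantile normalization. The difference was 0.18 ± 0.09 (SE, limma adjusted p = 0.605).

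Rarb, itself a retinoic acid target gene and known from stellate cells, read 3.08, 2.97 and 2.92 in KO mice 1 to 3, against 2.99, 3.59 and 3.16 in WT mice 1 to 3. Its mean over all mice was 3.12, and WT mouse 2 stood above the other 5. The difference of -0.26 ± 0.15 (SE; limma adjusted p = 0.637) was -0.08 without that mouse. The 9 stellate markers were all above the filter and summed to 726 to 850 in KO and 674 to 902 in WT; 3 of the 9 had a positive and 6 a negative difference, from -0.34 for Hgf (limma adjusted p = 0.442), whose groups did not overlap, to 0.35 for Pdgfrb. Rarg averaged 3.46 ± 0.41 in KO and 3.39 ± 0.15 in WT (SD, n = 3 each), with the lowest of the 6 values in KO mouse 3.

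Hnf4a and Rora, grouped here with Nr5a2 and Hnf4g, held 2 of the 3 smallest SDs between mice among the 24 tested receptors. Hnf4a, required for the hepatocyte gene programme, read 9.15, 9.16 and 9.14 in KO mice 1 to 3, against 9.09, 9.19 and 9.15 in WT mice 1 to 3. The difference was 0.0032 ± 0.09 (SE; 95% interval -0.19 to 0.20; limma adjusted p = 0.994). Rora, a clock-linked receptor that activates Arntl, read 5.24, 5.23 and 5.26 in KO mice 1 to 3, against 5.16, 5.26 and 5.18 in WT mice 1 to 3. The pooled SDs between mice were 0.034 for Hnf4a and 0.039 for Rora, and 1.09% and 1.63% of all genes tested had smaller ones. Nr5a2, or LRH-1, a regulator of bile acid and sterol genes, averaged 7.68 ± 0.09 in KO and 7.64 ± 0.14 in WT (SD, n = 3 each). Hnf4g, the relative of Hnf4a known from gut and kidney, was under the filter at 1.89 in KO and 1.90 in WT. For the 3 tested members of this group the intervals all lay within 0.5 of 0.

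The orphan receptors, for which no natural ligand is firmly known, held the smallest p of the whole list. Nr2f6, also called EAR2, is a relative of the COUP transcription factors and acts mainly as a repressor. It read 6.06, 5.96 and 5.96 in KO mice 1 to 3, against 5.44, 5.62 and 5.44 in WT mice 1 to 3. All KO mice lay above all WT mice, with a gap between the groups that exceeded the range within either. The difference was 0.49 ± 0.10 (SE; 95% interval 0.28 to 0.71), a factor of 1.41, with an unadjusted limma p of 0.000692. The exact permutation p was again the lowest that 3 against 3 mice can give. The limma adjusted p was 0.245, so Nr2f6 did not pass over all genes; among the alternatives it ran from 0.159 with trend and robust options to 0.474. Leaving out each mouse in turn gave differences of 0.46 to 0.56.

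Nr2c2, or TR4, a receptor that binds direct repeats of the nuclear receptor hexamer, read 5.01, 4.93 and 5.21 in KO mice 1 to 3, against 4.78, 4.85 and 4.83 in WT mice 1 to 3. The groups did not overlap, with a difference of 0.23 ± 0.10 (SE; limma adjusted p = 0.561) that was 0.14 without KO mouse 3. Its closest relative Nr2c1, or TR2, averaged 5.51 ± 0.07 in KO and 5.38 ± 0.08 in WT (SD, n = 3 each), with WT mouse 2 inside the KO range. Nr2f2, or COUP-TFII, known from venous endothelium and stroma as well as hepatocytes, averaged 5.06 ± 0.19 in KO and 4.90 ± 0.15 in WT (SD, n = 3 each), also with overlap. The 7 sinusoidal endothelial markers summed to 440 to 492 in KO and 433 to 529 in WT.

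Under the filter, Nr6a1, the germ cell nuclear factor, read 2.58, 2.57 and 2.58 in KO mice 1 to 3, against 2.42, 2.34 and 2.32 in WT mice 1 to 3. Nr2f1, or COUP-TFI, read 2.28, 2.23 and 2.05 in KO mice 1 to 3, against 2.34, 2.36 and 2.44 in WT mice 1 to 3. Neither group pair overlapped, in opposite directions, and signals this low are compressed by array background. With no signal filter, 31 receptors were tested among 22180 genes, and 0 had an adjusted p under 0.05 in limma (0.018% of all genes), the smallest being 0.285, for Nr2f6. In that fit 4 receptors had an unadjusted p under 0.05 as higher in KO, where 4.46% of all genes did, and 0 as lower, where 3.02% did. They were Nr2f6, Nr1i2, Nr6a1 and Nr2c2.

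The steroid and oestrogen-related receptors had the smallest median difference of the receptor groups, 0.015 over the 5 tested. Nr3c1, the glucocorticoid receptor, averaged 6.71 ± 0.13 in KO and 6.71 ± 0.03 in WT (SD, n = 3 each), a difference of 0.0046 with a 95% interval of -0.22 to 0.23. Nr3c2, the mineralocorticoid receptor, averaged 5.06 ± 0.15 in KO and 5.06 ± 0.06 in WT. Esr1, oestrogen receptor alpha, read 6.53, 6.25 and 6.31 in KO mice 1 to 3, against 6.12, 6.31 and 6.17 in WT mice 1 to 3. WT mouse 2 fell inside the KO range, and the difference was 0.16 ± 0.11 (SE; limma adjusted p = 0.668), or 0.08 without KO mouse 1. Esrra, a regulator of mitochondrial genes, averaged 5.35 ± 0.22 in KO and 5.33 ± 0.11 in WT, and Esrrg, a relative known to respond to fasting signals in liver, averaged 4.06 ± 0.31 in KO and 4.01 ± 0.34 in WT (SD, n = 3 each). Esrrg had the largest pooled SD between mice of the 24, at 0.33. Pgr, the progesterone receptor, and Esrrb, known from early embryos, were under the filter at 2.13 and 2.20 in KO, against 2.26 and 2.34 in WT.

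**Figure D2:**
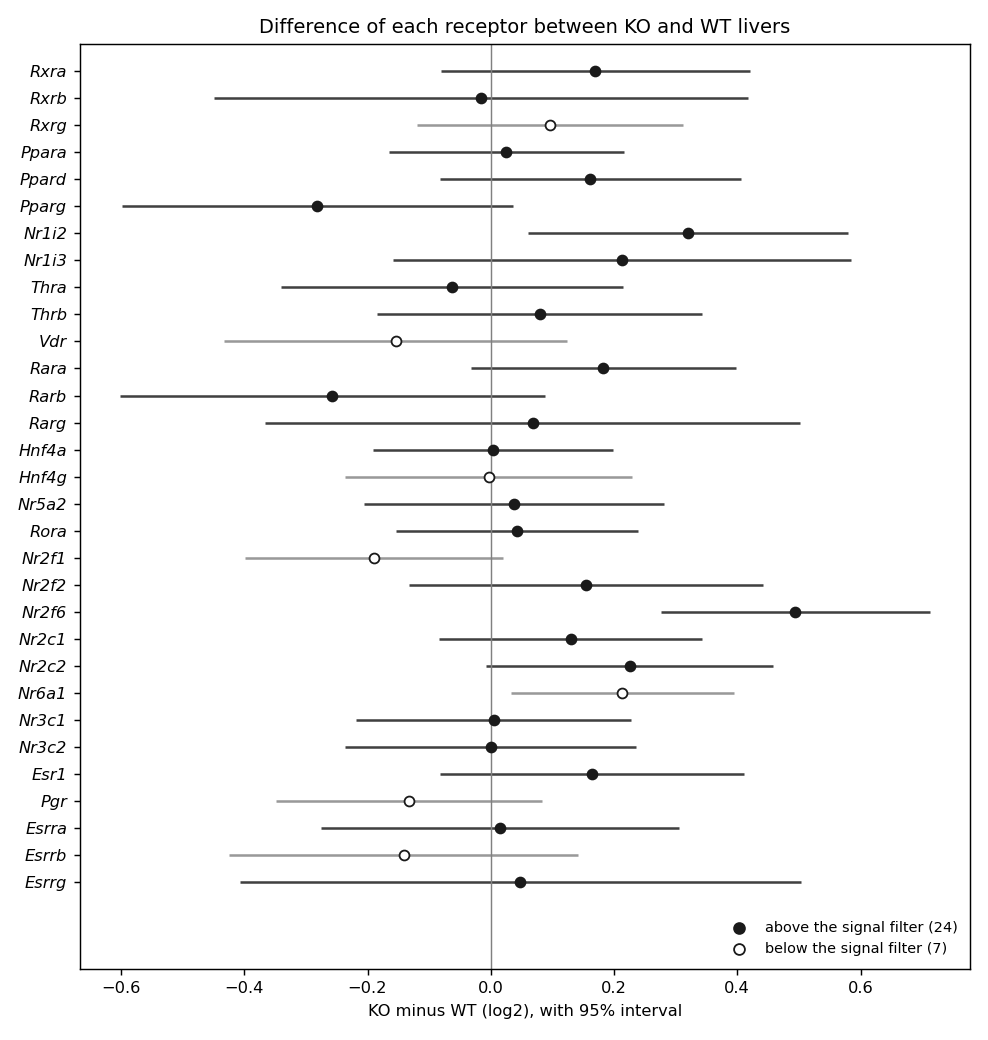
KO minus WT difference on the log2 scale (horizontal axis) of each receptor with its 95% interval from limma; filled points are the 24 receptors above the signal filter and open points the 7 below it. Among filled points the intervals of Nr2f6, at 0.28 to 0.71, and Nr1i2, at 0.06 to 0.58, lie above 0, while those of Hnf4a, Nr3c1 and Nr3c2 are centred near it.

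Most receptors leaned the same way. Of the 24 tested, 20 had a positive difference and 4 a negative one (Pparg, Rarb, Thra and Rxrb), while 57.7% of all genes tested were positive. That split depended on scaling: it was 14 positive and 10 negative after quantile normalization, where 47.1% of all genes were positive, and 17 and 7 after median centring, where 53.6% were. Without KO mouse 2 it was 14 and 10. The median difference was 0.06 over the receptors and 0.03 over all genes tested, and the median size regardless of sign was 0.105 and 0.098. Dropping KO mouse 1 put the receptors' median at 0.099, dropping WT mouse 2 at 0.11, and dropping WT mouse 3 at 0.03.

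KO and WT values did not overlap in 5 tested receptors. In 4 of them, Nr2f6, Nr1i2, Nr2c2 and Rara, KO was higher (16.7% of the 24), where 9.63% of all genes tested separated that way. In 1, Pparg, KO was lower (4.17%), where 5.16% did. After median centring 3 were left: Nr2f6, Nr2c2 and Rara. After quantile normalization there were 5: Nr2f6, Nr1i2, Nr2c2, Nr2c1 and Pparg, so which receptors separated depended on scaling. Shares over all genes are not given for these scalings. With no signal filter the shares over all genes were 7.04% and 5.54%, and Nr6a1 and Nr2f1 joined the 5 separated as deposited, 1 on each side. The highest of the 6 values was in KO mouse 3 for 9 receptors, KO mouse 2 for 6, WT mouse 2 for 5 and KO mouse 1 for 4. The lowest was in WT mouse 3 for 8, WT mouse 1 for 7, KO mouse 1 for 5 and KO mouse 3 for 4. Over all genes tested, KO mouse 3 was highest in 25.6%, KO mouse 2 in 15.9%, WT mouse 2 in 20.3% and KO mouse 1 in 14.1%. WT mouse 3 was lowest in 18.5%, WT mouse 1 in 27.6%, KO mouse 1 in 17.7% and KO mouse 3 in 12.3%.

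**Figure D3:**
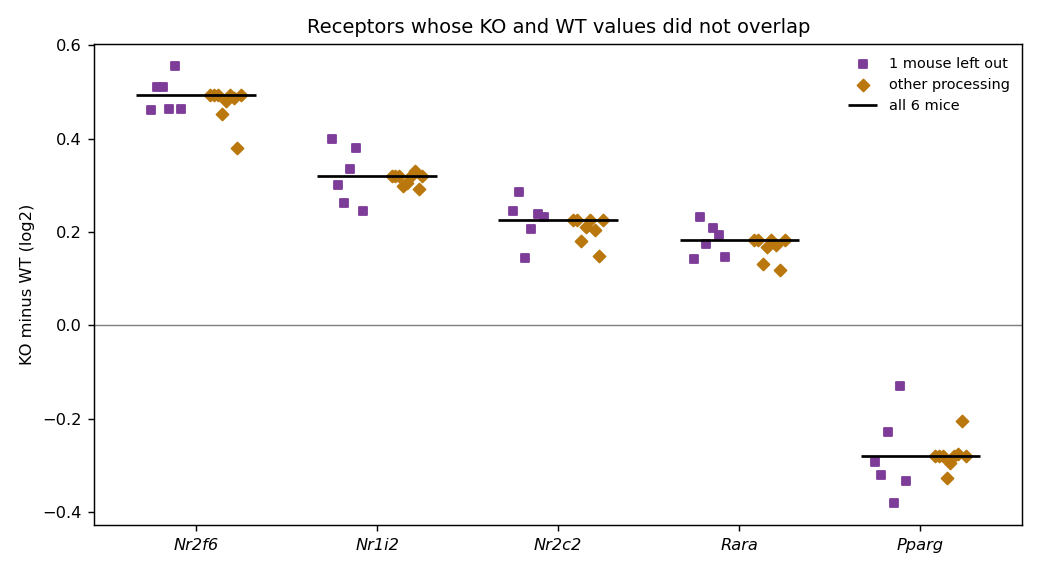
KO minus WT difference on the log2 scale (vertical axis) of the 5 tested receptors whose groups did not overlap, with all 6 mice (bar), with each mouse left out in turn (squares) and under the other processing choices (diamonds). Nr2f6 stays between 0.38 and 0.56 throughout; Rara comes closest to 0, at 0.12 with a pseudocount of 16, and Pparg reaches -0.13 without WT mouse 2.

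Because many of these receptors are known to act through a shared DNA hexamer, AGGTCA, the 250 bases before annotated transcript starts were searched for it on both strands (RefSeq, GRCm38.p6). Promoter sequence was held for 29 of the 32 receptors. In 7 of the 29 genes (24.1%) at least 1 window contained the hexamer, against 15.8% of all 27025 genes with a window. Genes with more windows have more chances to match, so these shares by gene were not read as an excess. Counted by window, the hexamer was in 8 of the 48 receptor windows and in 4607 of all 32851 windows. The direct repeat AGGTCANAGGTCA was in 0 of the 29 and in 11 of all genes. The windows of the 2 receptors with the smallest p are shown with the downstream window of Rxra, their relative, which holds 2 hexamers. The other Rxra window holds 0, and a window of Nr6a1 also holds 2. Capitals mark the hexamer on either strand, and a window without capitals holds none. A match is a description of letters only, and which start site the probe sets read is not given. The windows are chr8:71381953-71382202 (minus strand) for Nr2f6, chr16:38294825-38295074 (minus strand) for Nr1i2 and chr2:27709042-27709291 (plus strand) for Rxra, each 5′ to 3′ along its gene.
Nr2f6: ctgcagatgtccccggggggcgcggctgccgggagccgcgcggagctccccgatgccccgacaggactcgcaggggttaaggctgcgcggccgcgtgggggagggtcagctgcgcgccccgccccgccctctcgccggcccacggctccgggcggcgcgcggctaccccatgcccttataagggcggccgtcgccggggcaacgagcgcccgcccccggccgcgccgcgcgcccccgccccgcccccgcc
Nr1i2: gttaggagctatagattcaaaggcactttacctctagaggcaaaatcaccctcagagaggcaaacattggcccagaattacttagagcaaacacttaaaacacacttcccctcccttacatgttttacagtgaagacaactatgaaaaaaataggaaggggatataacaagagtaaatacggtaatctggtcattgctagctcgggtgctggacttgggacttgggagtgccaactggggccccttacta
Rxra: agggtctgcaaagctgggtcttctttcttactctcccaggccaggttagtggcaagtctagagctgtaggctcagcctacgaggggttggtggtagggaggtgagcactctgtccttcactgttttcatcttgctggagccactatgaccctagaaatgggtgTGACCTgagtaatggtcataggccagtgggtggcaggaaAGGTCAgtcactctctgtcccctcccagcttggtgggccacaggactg
The Nr2f6 window was 82.4% G and C, the Nr1i2 window 44.0% and the Rxra window 55.2%.

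Genes through which receptors work were then read from the same fit, as counts and medians. Some genes are in several lists, so the list counts are not separate. Among them are Cyp8b1 (HNF4A and RORA targets), Klf9 (glucocorticoid and thyroid hormone receptor targets) and Cyp26a1 (ligand handling and retinoic acid targets). Of 10 coactivators tested, 0 passed and 9 had a positive difference, with a median of 0.16 against 0.03 over all genes. Of all genes tested, 57.7% were positive. Ppargc1b, a coactivator of mitochondrial and lipid genes, read 3.65, 3.41 and 3.69 in KO mice 1 to 3, against 3.11, 3.41 and 3.14 in WT mice 1 to 3 (difference 0.36 ± 0.12, SE; limma adjusted p = 0.423). KO mouse 2 and WT mouse 2 were alike. Crebbp, a histone acetyltransferase, differed by 0.22 and Ncoa1, a p160 coactivator, by 0.20. Of 7 corepressor genes tested, 0 passed and 7 had a positive difference, with a median of 0.13; Sin3a, a scaffold of histone deacetylases, differed by 0.19 with no overlap, and Lcor and Tbl1x by 0.23 and 0.14, with Lcor at 0.10 without WT mouse 1. The coactivator median was 0.10 without WT mouse 1, and the corepressor median was 0.21 without WT mouse 2. After quantile normalization the medians were 0.12 and 0.08, with 9 of 10 and 6 of 7 positive, where 47.1% of all genes were. The corepressors split 5 positive and 2 negative without WT mouse 1, and likewise without WT mouse 3. In those settings 52.4% and 57.7% of all genes were positive.

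PPAR targets had more negative than positive differences with all 6 mice, and near-even splits without KO mouse 3 for PPARA and without KO mouse 2 for PPARG. Of 15 PPARA target genes tested, 0 passed, 3 had a positive and 12 a negative difference, and the median was -0.08. Without KO mouse 3 the split was 7 and 8. Slc25a20, the mitochondrial carnitine carrier, was at -0.23 ± 0.10 and Vnn1, a pantetheinase, at -0.27 ± 0.13 (SE), and Acot2, an acyl-CoA thioesterase, was at -0.60 ± 0.30. Without WT mouse 2, Vnn1 was at -0.14 and Acot2 at -0.35, and without KO mouse 3 Acot2 was at -0.30. The 3 positive genes included Fgf21, a fasting hormone, at 0.69 and Angptl4, a lipase inhibitor, at 0.45. The median ran from -0.24 without KO mouse 2 to -0.01 without KO mouse 3. Of 6 PPARG target genes tested, 0 passed, and 1 had a positive and 5 a negative difference, with a median of -0.36; without KO mouse 2 the split was 3 and 3. Cidea, a lipid droplet protein, read 5.18, 3.42 and 3.26 in KO mice 1 to 3, against 5.49, 5.48 and 4.83 in WT mice 1 to 3. KO mouse 1 thus lay within the WT range and the other KO mice far below it, and the difference was -1.31 ± 0.45 (SE; limma adjusted p = 0.437). Cd36, a fatty acid importer, and Cidec, a droplet protein, differed by -0.53 and -0.68, and in both KO mouse 1 was again the highest of the KO mice. Without WT mouse 2, Cd36 was at -0.33 and Cidec at -0.42. Leaving out KO mouse 1 gave a median of these 6 genes of -0.66, and leaving out KO mouse 2 gave -0.22. For WT mouse 3 the value was -0.55 and for WT mouse 2 it was -0.18.

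Targets of the xenobiotic receptors had mostly negative differences with all 6 mice and an even split without WT mouse 2. Of 14 tested, 0 passed, and 3 had a positive and 11 a negative difference, or 7 and 7 without WT mouse 2, with a median of -0.12 that ran from -0.27 without WT mouse 3 to -0.04 without KO mouse 3. Cyp3a13, a drug-metabolising P450, read 7.70, 7.64 and 8.08 in KO mice 1 to 3, against 7.503, 7.497 and 7.583 in WT mice 1 to 3, without overlap (difference 0.28 ± 0.13, SE; limma adjusted p = 0.562), and its difference was 0.14 without KO mouse 3. Slco1a4, an organic anion transporter, differed by -0.58 ± 0.27 and Ces2a, a carboxylesterase, by 0.26 ± 0.13, and without WT mouse 2 these were -0.31 and 0.14. The differences of the 14 genes ran from -1.12 to 0.28.

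Glucocorticoid receptor targets split, beside a receptor signal that was level. Of 13 tested, 0 passed, 4 had a positive and 9 a negative difference, and the median was -0.05, running from -0.20 without WT mouse 3 to 0.02 without KO mouse 2. Without KO mouse 2 the split turned to 8 positive and 5 negative. Sgk1, a kinase induced by steroids, read 4.39, 4.26 and 4.32 in KO mice 1 to 3, against 4.98, 5.001 and 4.59 in WT mice 1 to 3 (difference -0.54 ± 0.13, SE; limma adjusted p = 0.306). Zbtb16, a zinc-finger factor induced by glucocorticoids, read 6.58, 6.35 and 7.15 in KO mice 1 to 3, against 3.92, 4.35 and 6.25 in WT mice 1 to 3 (difference 1.85 ± 0.52, SE; adjusted p = 0.357). In both genes WT mouse 3 was the WT mouse nearest to KO, and without it Sgk1, at -0.67, and Zbtb16, at 2.56, passed over all genes (limma adjusted p = 0.0475 and 0.0034). Leaving out that mouse let 51 of all genes pass, against 4 with all 6 mice and 1 or 2 without any other mouse. Igfbp1, which also answers to insulin, was at -1.41 ± 0.63, or -0.71 without WT mouse 2.

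The medians of thyroid hormone, retinoic acid and HNF4A targets lay between -0.07 and 0.02. Of 6 thyroid hormone receptor targets, 0 passed, and 2 had a positive and 4 a negative difference. Their median was -0.07, turning to 0.06 without KO mouse 2; Klf9, Bcl3 and Me1 had differences of -0.16, 0.25 and -0.15. Without WT mouse 3, Bcl3 was at 0.09 and Me1 at -0.08, and without KO mouse 1 Klf9 was at -0.08. Of 7 retinoic acid targets, 0 passed, and 2 had a positive and 5 a negative difference. Their median was -0.03, turning to 0.05 without KO mouse 2, where the split was 5 and 2. Dhrs3, a retinal reductase, was at 0.20 ± 0.10 (SE) with no overlap, while Cyp26a1, which degrades retinoic acid, was at -0.45 ± 0.46 and Crabp2 at -0.05. Dhrs3 was at 0.12 without WT mouse 1, and Cyp26a1 ran from -1.05 without KO mouse 3 to -0.14 without KO mouse 2. Of 12 HNF4A targets, 0 passed, and 9 had a positive and 3 a negative difference, or 6 and 6 after quantile normalization or without WT mouse 1. Their median was 0.02, or 0.0037 without WT mouse 1, and the 12 ran from -0.62 for Apoa4, a lipoprotein component, to 0.08 for F12, a clotting factor; Cyp8b1, a bile acid enzyme, was at -0.27. Apoa4 was at -0.31 without WT mouse 2, and Cyp8b1 at -0.03 without KO mouse 3.

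Of 5 RORA targets tested, 0 passed and 4 had a positive difference, with a median of 0.32, or 0.19 without KO mouse 3. The 1 with a negative difference was Cyp8b1, which is also among the HNF4A targets. The split was 3 and 2 without KO mouse 3, and likewise without WT mouse 2. With no signal filter 7 were tested, 4 positive and 3 negative, with a median of 0.25. Nfil3, a clock output repressor, read 5.13, 5.18 and 5.11 in KO mice 1 to 3, against 4.64, 4.86 and 4.89 in WT mice 1 to 3, without overlap (difference 0.34 ± 0.10, SE; limma adjusted p = 0.363). Elovl3, a fatty acid elongase, was at 0.70 ± 0.26 and Arntl, the clock activator, at 0.25 ± 0.18. Elovl3 was at 0.45 without WT mouse 2 and Arntl at 0.11 without KO mouse 1. Rora itself differed by 0.04.

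Genes that carry, make or break down receptor ligands had a median of 0.0032 over 11 tested, with 0 past the threshold. Aldh1a1, a retinaldehyde dehydrogenase on the way to retinoic acid, read 10.94, 10.93 and 10.79 in KO mice 1 to 3, against 11.13, 11.23 and 11.11 in WT mice 1 to 3, without overlap (difference -0.27 ± 0.09, SE; limma adjusted p = 0.437). Fabp1, the liver fatty acid-binding protein, and Cyp27a1, an oxysterol-forming enzyme, were at 0.11 and 0.12. The list median was 0.11 when WT mouse 3 was dropped, -0.03 when WT mouse 1 was, and -0.04 after quantile normalization. Among 6 nuclear receptors outside the 32 that were tested, 0 passed and the median was 0.03, or -0.04 without KO mouse 2 and -0.0047 after quantile normalization. Nr4a1 was at -2.42 and passed without WT mouse 3 (-3.39, limma adjusted p = 0.00012), 1 of 51 genes that passed in that setting. Nr0b2, the repressor SHP, was at 0.72, or 0.35 without WT mouse 3, and Nr1h4, the bile acid receptor FXR, was at 0.08.

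**Figure D4:**
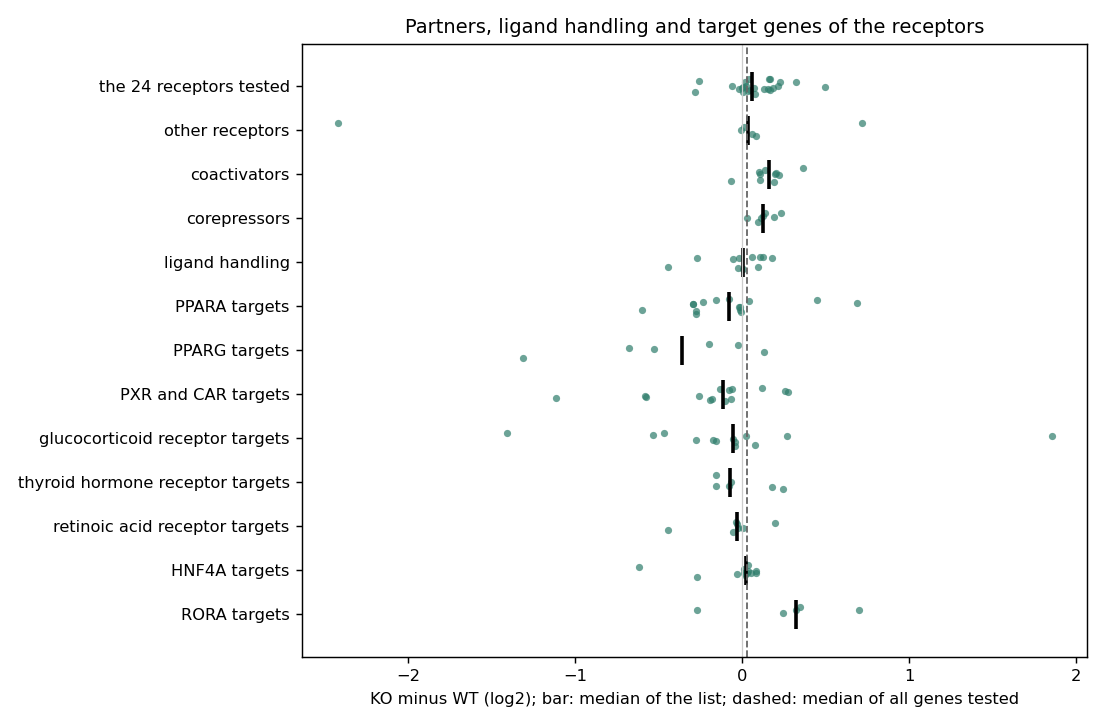
KO minus WT difference on the log2 scale (horizontal axis) of the tested receptors and of each list of partners, ligand-handling genes and targets (rows); points are genes, thick bars list medians, and the dashed line is the median of all genes tested, 0.03. RORA targets sit furthest to the right with a median of 0.32, followed by coactivators and corepressors at 0.16 and 0.13. PPARG targets sit to the left with a median of -0.36.

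Among markers of other cells, Kupffer and pancreatic acinar sums overlapped between the genotypes, and bile duct sums did not. Of the 7 Kupffer cell markers, 6 had a positive and 1 a negative difference, with a median of 0.17. Kupffer cell markers summed to 349 to 542 in KO and 317 to 557 in WT, and bile duct markers to 85.1 to 99.7 in KO and 67.8 to 84.4 in WT, over 5 genes of which 2 were above the filter. Sox9, 1 of those 2, was at 0.41 (limma adjusted p = 0.437) with no overlap. Pancreatic acinar markers summed to 31.6 to 39.6 in KO and 38.3 to 91.9 in WT, over 4 genes of which 2 were above the filter. Those 2 had negative differences. Lymphoid and neutrophil markers summed to 40.1 or less in every mouse. The part of these cells in the receptor values was not tested. None of the 32 receptors lies on the chromosome of Gpr146 in the reference.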

How the data were processed

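Liver RNA of 6 mice was extracted with Trizol, and 100 ng was labelled as biotinylated cRNA for Affymetrix whole-transcript arrays, per the labels' protocols. The authors deposited 1 table of log2 values, 41345 probe sets by 6 arrays; how probe signals were summarised and normalized is not stated in what was used here. The scale was read from the values, whose maxima were 12.1 to 12.2. Each column name matched 1 mouse.

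Gene symbols came from the array's annotation, brought up to RefSeq (GRCm38.p6) by Entrez number for 23328 of 23521 probe sets with 1 symbol; 1814 with several and 16010 with none were left out. Genes at or above the median signal, 11090 in all, were tested with limma 3.58.1 in R 4.3.3 (lmFit, eBayes, two-sided, no covariate, Benjamini-Hochberg over all genes tested, threshold 0.05). Differences are KO minus WT; single values also had an exact two-sided permutation test over mice. Each mouse was a separate animal, and 3 a group limits the precision (median SE 0.11). The fit was tested on simulated data with independent noise, where every planted change was larger than any difference of the listed receptors. That simulation does not show how often differences as small as theirs would pass.

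The receptors and all lists were chosen with earlier results of these data known, so they give no independent support. All 32 receptors were named, with the 3 genes of smallest p in each other list; Hgf, Pdgfrb, Sox9, Fgf21 and Angptl4 were named after their values were seen. Marker lists also covered erythroid genes, of which 0 of 4 were analysed here. Alternatives were the signal filter, scaling, a pseudocount, limma options, array weights, probe-set averaging, the replicate block and each mouse left out.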

Additional observations from a re-analysis of the deposited data

How the results depend on the processing

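No receptor passed the threshold under any of the 15 alternatives, and the smallest adjusted p of any was 0.159. The count of all genes called, 4, was 0 in the upper 25% of signal, and 1 with a pseudocount of 16 or with the replicate block; it ran from 1 to 51 with 1 mouse left out, 51 of them without WT mouse 3. Same-numbered mice did not deviate together (correlations of 0.055, -0.187 and 0.147), so the number was not taken as a pairing; the block changed no call of a receptor. Receptors without overlap, 5 with all mice, numbered 3 in the upper 25% of signal and 3 after median centring, where Nr1i2 and Pparg overlapped. They numbered 5 after quantile normalization, where Rara overlapped and Nr2c1 did not. With 1 mouse left out they numbered 6 to 9, when fewer values have to separate. Shares over all genes are not given for these settings, so the counts were not read as an excess or a lack. The receptors' median difference, 0.058, ran from 0.028 to 0.112 with 1 mouse left out, and was 0.112 without WT mouse 2. Of 443 refitted receptor differences, 36 in 13 receptors changed sign, and in 1 of the 36 a value exceeded its SE: Rxrb, at 0.19 without KO mouse 1, in a range of -0.14 to 0.19 over mice left out. Nr3c2 read -0.12 from its second probe set. At an unadjusted p under 0.05, quantile normalization gave 494 genes higher and 584 lower, against 683 and 330 as deposited. The cause of these shifts was not tested. Signals near the filter are compressed by array background, which limits what Rarb, Thra, Rarg and the 7 receptors below it can show.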

Other observations

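Nr3c2 was the only receptor of the 31 with a second probe set of its own. That probe set read 1.85, 1.71 and 1.82 in KO mice 1 to 3, against 1.86, 1.93 and 1.96 in WT mice 1 to 3, so it lay under the signal filter and every KO value was below every WT value, while the first probe set, used above, showed no difference in its means. The spread between mice differed among receptors of 1 family: the pooled SD was 0.016 for Ppara, 0.12 for Ppard and 0.20 for Pparg, and 0.13 for Rxra against 0.31 for Rxrb. Over the 24 tested receptors the median SD was 0.127, and over all genes tested it was 0.139.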
